A study of Homo sapiens with 6 samples.

Results

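The genes described here are the neurofilament genes NEFL, NEFM, NEFH and INA and the neuronal markers SYP, STMN2, UCHL1 and TUBB3 in 293T cells. These 8 genes were taken by symbol from the 60669 genes of the count files. They were chosen by name with earlier results of these counts in view, among them the values of NEFL and SYP in the PRMT1 knockdown, and the changes of the 8 genes are therefore given as a description, with standard errors and without p-values. 293T is a transformed human embryonic kidney line. Total RNA was read in 6 libraries that form 3 groups of 2: cells labelled PRMT1 knockdown, in which a short hairpin RNA targets the arginine methyltransferase PRMT1; cells labelled MLL2 knockout, made with CRISPR/Cas9 against a histone H3 lysine 4 methyltransferase; and wild-type control cells. All 6 libraries are labelled as untreated. The alignment names in the file headers carry shNT for the control and knockout libraries and shPR for the knockdown libraries, which the labels do not explain. The labels do not say whether the knockout is a single clone, whose own traits could then not be told apart from the knockout. The study set out to find genes whose expression differs when either protein is depleted, and its text calls the 2 libraries of a group biological replicates, with nothing more on their origin.

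Neurofilaments are the intermediate filaments of mature axons, where they set axon calibre. NEFL, the light chain, forms the filament core, with which NEFM (medium chain), NEFH (heavy chain) and INA (alpha-internexin) assemble. SYP encodes synaptophysin, a membrane protein of synaptic vesicles. STMN2 encodes a stathmin that binds tubulin in growing axons, TUBB3 the beta tubulin used to stain neurons, and UCHL1 an abundant ubiquitin hydrolase of neurons. HEK293 cells and their derivatives are known to carry neurofilament proteins although they were made from kidney cultures.

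Promoter sequence is shown for INA, SYP and UCHL1, members with at least 5 CPM in every library for which a window from the RefSeq promoter table is shown. Windows were kept for 4 of the 8 genes, and TUBB3 is left out because of its doubtful counts. A member without a window here need not lack an entry in that table. INA and SYP were both called lower in the knockdown, while in the knockout SYP was called higher and INA was not called. Of these 3 genes, UCHL1 had the smallest change in every comparison. Each run is the 250 bases before the RefSeq start, 5′ to 3′ on the strand of the gene, in GRCh38.p14. The RefSeq starts of SYP and UCHL1 lie inside the GENCODE 34 gene bounds given further on. The windows are chr10:103276888-103277137 (plus strand) for INA, chrX:49200194-49200443 (minus strand) for SYP and chr4:41256678-41256927 (plus strand) for UCHL1. Capitals mark the GC box, GGGCGG or its reverse complement CCGCCC.
INA: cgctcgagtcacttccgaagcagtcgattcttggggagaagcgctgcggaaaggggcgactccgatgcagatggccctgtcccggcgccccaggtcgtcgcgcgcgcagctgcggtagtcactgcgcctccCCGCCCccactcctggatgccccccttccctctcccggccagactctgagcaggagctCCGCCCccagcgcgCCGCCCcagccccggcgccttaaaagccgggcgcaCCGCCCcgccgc
SYP: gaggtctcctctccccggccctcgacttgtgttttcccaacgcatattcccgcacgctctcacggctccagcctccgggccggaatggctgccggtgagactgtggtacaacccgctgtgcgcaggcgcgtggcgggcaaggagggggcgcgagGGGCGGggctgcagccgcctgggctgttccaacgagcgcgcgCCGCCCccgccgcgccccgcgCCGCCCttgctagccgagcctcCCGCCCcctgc
UCHL1: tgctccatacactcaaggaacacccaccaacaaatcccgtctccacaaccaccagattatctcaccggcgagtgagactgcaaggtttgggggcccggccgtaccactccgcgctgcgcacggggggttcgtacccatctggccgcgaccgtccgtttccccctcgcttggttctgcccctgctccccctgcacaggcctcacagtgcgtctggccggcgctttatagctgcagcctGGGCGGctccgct
The GC box matched 4 times in the INA window, 4 times in the SYP window and 1 time in the UCHL1 window. Of 35116 such windows in the table, 42.6% hold it at least 1 time. The CG pair occurred 30 times before INA, 31 times before SYP and 20 times before UCHL1. That is more than in 87.6%, 89.1% and 67.6% of the windows, in that order. The letters TTCAGCACC, the left part of the element bound by the neuronal gene repressor REST, were in none of the 3 windows on either strand, and are in 0.288% of all windows. The right part, GGACAG or its reverse complement CTGTCC, matched 1 time in the INA window and in neither of the other windows, and is in 17.2% of all windows. A match is only a description of the letters.

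Gene counts summed to between 20061471 and 22351532 per library, and the filter on low counts left 17575 genes. Levels are counts per 1000000 (CPM), scaled by the library total times its TMM factor, and changes are log2 ratios ± SE of a fit over all tested genes with n = 2 libraries per group. A gene is called when its adjusted p in edgeR's quasi-likelihood test is under 0.05 over all genes tested. Such p-values measure no more than how much these libraries vary, which may be technical. PRMT1 itself stood at 38.2 and 34.8 CPM in the knockdown libraries, against 306 and 318 CPM in the control libraries. In the knockout it stood at 406 and 425 CPM. The name MLL2 has been used for KMT2B and KMT2D, and neither message was called in the knockout. KMT2B had 7.11 and 7.35 CPM in the knockout against 6.73 and 7.52 CPM in the control, and KMT2D 20.7 and 24.2 CPM against 22.4 and 17.0 CPM. Transcript levels of this kind do not check a genome edit. In the PRMT1 knockdown both messages were called higher, KMT2B by 1.49 ± 0.24 and KMT2D by 1.76 ± 0.25 on the log2 scale. Their replicates there were far apart, at 13.4 and 26.7 CPM for KMT2B and 37.7 and 95.3 CPM for KMT2D. The libraries of the knockdown differed more between themselves than those of the other groups: over 11509 genes with an average log2 CPM of at least 2, the SD of the log2 difference between replicates was 0.262 in the knockdown, 0.199 in the knockout and 0.195 in the control.

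Per length of exon, the 8 genes covered a wide range in the control libraries. UCHL1 averaged 137 CPM per kilobase and NEFL 88.6, above 98.5% and 97.7% of the tested genes. NEFM followed at 24.1 CPM per kilobase, INA at 4.26 and SYP at 3.64. INA and SYP, next to each other in this order, had 4.32 and 4.20 against 3.68 and 3.60 CPM per kilobase in the control libraries, so their values did not overlap. In the knockdown the order was the same, with UCHL1 at 115, NEFL at 13.9, NEFM at 7.95, INA at 2.04 and SYP at 1.15 CPM per kilobase. In the knockout SYP, at 5.22 CPM per kilobase, stood above INA at 3.75 and close to NEFM at 5.93. At the bottom, NEFH, STMN2 and TUBB3 had 19 counts or fewer in every library.

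**Figure D1:**
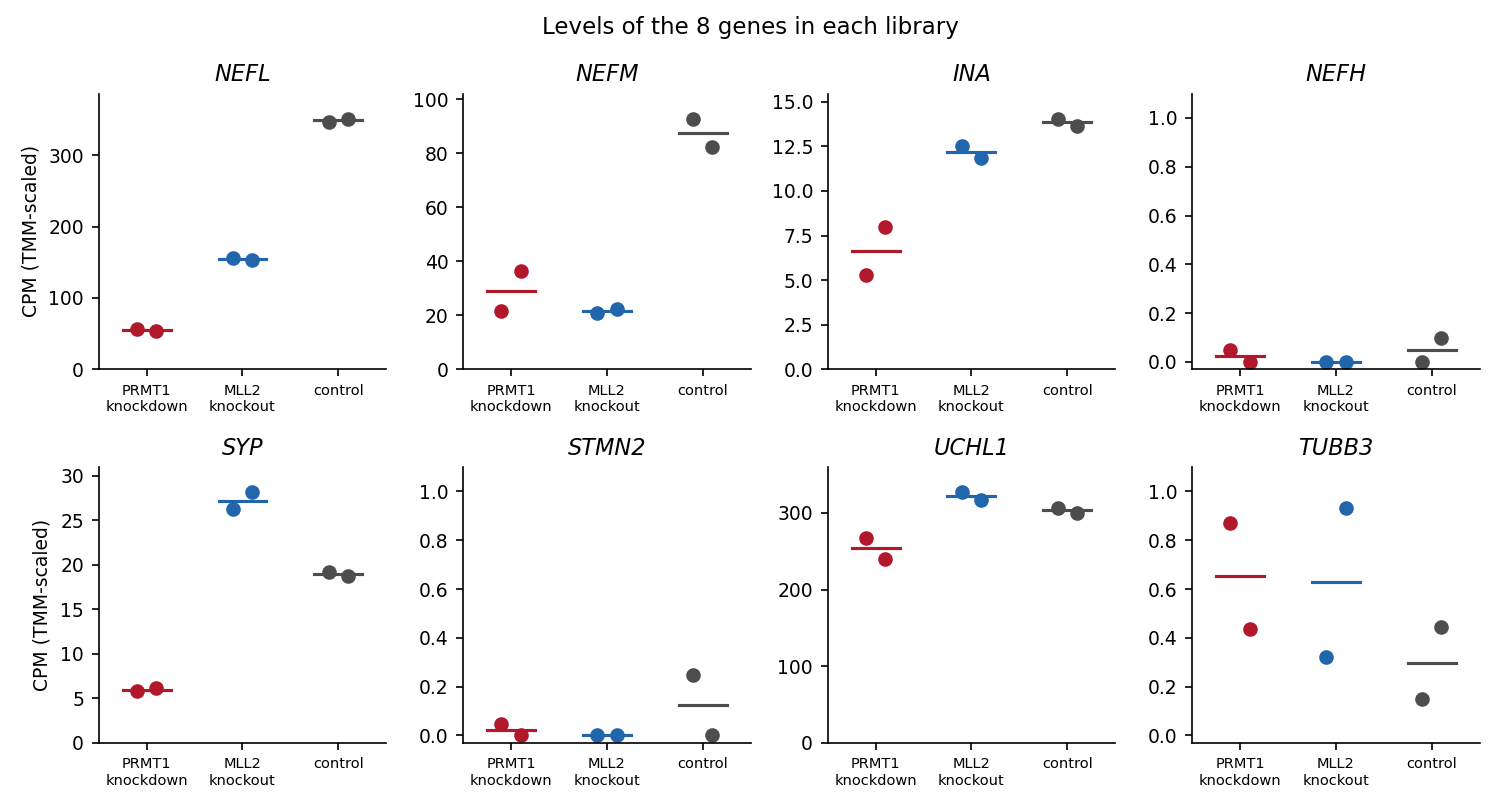
Levels of the 8 genes in CPM (y axis, linear, scaled by TMM, a separate range for each gene) in the PRMT1 knockdown, MLL2 knockout and control libraries (x axis). Points are libraries and lines are group means of 2 libraries. NEFL stood near 55 CPM in the knockdown and 349 CPM in the control, while NEFH and STMN2 stayed at or near 0 in every group.

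In the PRMT1 knockdown 5 of the 8 genes were called lower and 0 higher. Of all 17575 genes tested, 25.3% were called lower and 47.4% in either direction. The 5 were NEFL, NEFM, INA, SYP and UCHL1. For the same 5 both knockdown libraries lay below both control libraries, as they did for 38.6% of tested genes. For 0 of the 8 did both lie above, against 34.9% of tested genes. TUBB3 was not called, and STMN2 and NEFH did not pass the filter. In bulk RNA, fewer cells that express a gene and less RNA per cell cannot be told apart.

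NEFL (ENSG00000277586.3, chromosome 8, 24950955 to 24956721, minus strand) had 56.6 and 53.2 CPM in the knockdown libraries, 156 and 153 CPM in the knockout libraries and 346 and 351 CPM in the control libraries. The groups did not overlap, and the 2 libraries of each lay close together. NEFL was 6.36-fold lower in the knockdown than in the control (-2.67 ± 0.09) and 2.26-fold lower in the knockout (-1.18 ± 0.08). Against the knockout, the knockdown was 2.81-fold lower (-1.49 ± 0.08). All 3 differences were called.

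NEFM (ENSG00000104722.14, chromosome 8, 24913758 to 24919098, plus strand) lies beside NEFL on the other strand. It had 21.6 and 36.2 CPM in the knockdown libraries, 20.6 and 22.4 CPM in the knockout libraries and 92.8 and 82.1 CPM in the control libraries. The knockdown and the knockout libraries lay below the control libraries, but knockdown replicate 1 fell within the range of the knockout and replicate 2 above it. NEFM was 3.01-fold lower in the knockdown than in the control (-1.59 ± 0.16) and 4.06-fold lower in the knockout (-2.02 ± 0.16). Without PRMT1 knockdown replicate 2 the knockdown change was -2.02, and without replicate 1 it was -1.28. The knockdown was called higher than the knockout (0.43 ± 0.16), and that difference was 0.0017 and not called without PRMT1 knockdown replicate 2. It was also not called without either control library, without MLL2 knockout replicate 1, with the 2 groups fitted alone or by DESeq2. The annotation gives 26.4% of the exon bases of NEFM to a gene on the opposite strand as well, and the counting used strand.

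INA (ENSG00000148798.11, chromosome 10, 103277138 to 103290346) had 5.26 and 7.97 CPM in the knockdown libraries, 12.5 and 11.9 CPM in the knockout libraries and 14.1 and 13.7 CPM in the control libraries. It was 2.09-fold lower in the knockdown than in the control (-1.06 ± 0.20). The change in the knockout, -0.19 ± 0.19, was not called. The knockdown was called lower than the knockout (-0.88 ± 0.20). NEFH (ENSG00000100285.10, chromosome 22, 29480218 to 29491390), the heavy chain, had 1 and 0 counts in the knockdown, 0 and 0 counts in the knockout and 0 and 2 counts in the control libraries. All of these lie under the floor of 3 counts in a library, which is 0.132 to 0.150 CPM and covers counting error only, so no change of NEFH was detectable at this depth.

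**Figure D2:**
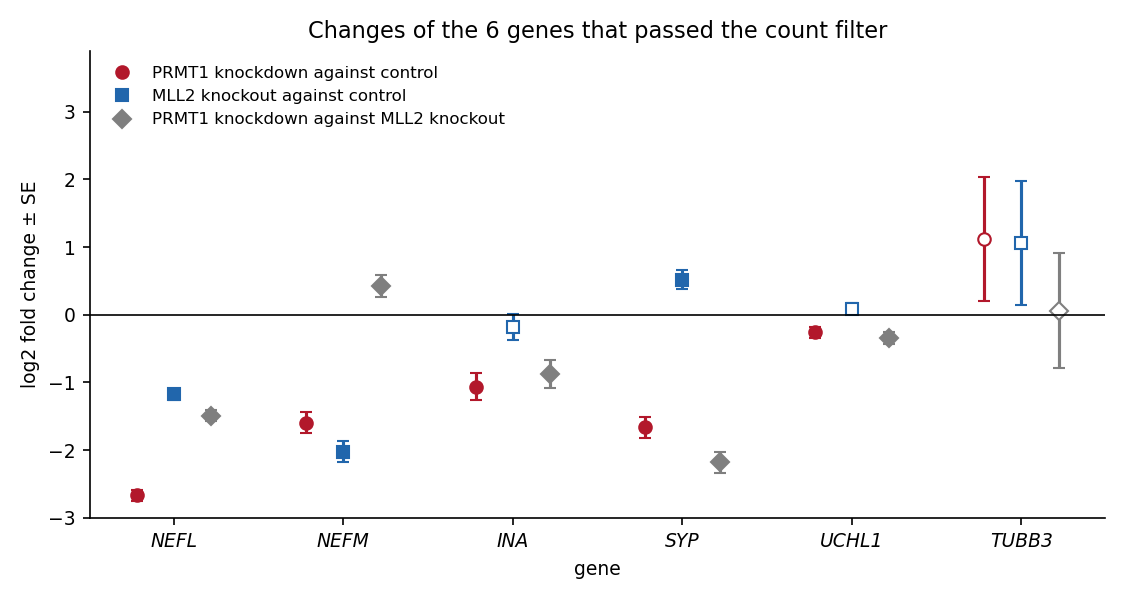
Log2 fold changes (y axis) of the 6 genes that passed the count filter (x axis), for the knockdown over control (circles), the knockout over control (squares) and the knockdown over the knockout (diamonds). Bars are SE, filled symbols are called genes and open symbols are not. SYP was the member called lower in the knockdown (-1.66) and higher in the knockout (0.52).

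The proportions among the neurofilament messages differed between the groups. NEFM over NEFL, in CPM per kilobase, was 0.414 and 0.738 in the knockdown libraries, 0.144 and 0.159 in the knockout libraries and 0.290 and 0.253 in the control libraries. The ratio was higher in the knockdown and lower in the knockout than in both control libraries. INA over NEFL was 0.113 and 0.182 in the knockdown, 0.0975 and 0.0940 in the knockout and 0.0492 and 0.0471 in the control. Both the knockdown and the knockout libraries lay above the control libraries here. These ratios use the same counts as the changes above and carry no test.

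**Figure D3:**
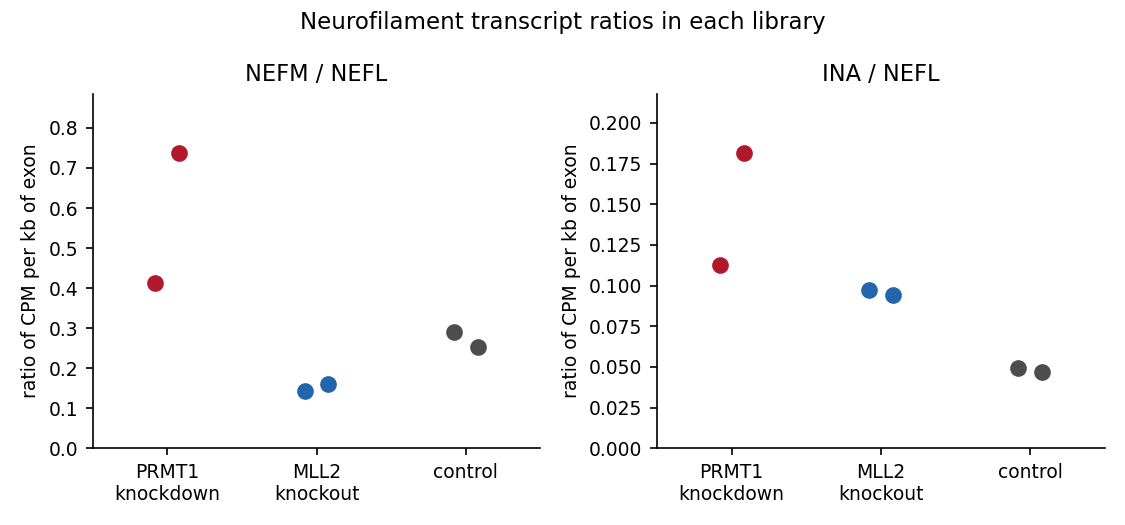
Ratios of NEFM to NEFL (left) and of INA to NEFL (right) in CPM per kilobase of exon (y axes, from 0), with a point for each library of the knockdown, knockout and control (x axes). NEFM over NEFL is lowest in the knockout, at 0.144 and 0.159, and the 2 knockdown libraries stand apart at 0.414 and 0.738.

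SYP (ENSG00000102003.10, chromosome X, 49187804 to 49200259, minus strand), the synaptic vesicle gene, had 5.80 and 6.18 CPM in the knockdown libraries, 26.2 and 28.2 CPM in the knockout libraries and 19.2 and 18.8 CPM in the control libraries. The 3 groups were apart, with the knockdown below and the knockout above the control. SYP was 3.17-fold lower in the knockdown than in the control (-1.66 ± 0.16). In the knockout it was called higher, by 1.43-fold (0.52 ± 0.14). That call was lost without control replicate 1 (0.54), without control replicate 2 (0.50) and without MLL2 knockout replicate 2 (0.47). The direct difference between knockdown and knockout was 4.53-fold (-2.18 ± 0.16) and was called.

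UCHL1 (ENSG00000154277.13, chromosome 4, 41256413 to 41268455), the ubiquitin hydrolase, had 267 and 240 CPM in the knockdown libraries, 327 and 317 CPM in the knockout libraries and 307 and 300 CPM in the control libraries. It was called lower in the knockdown, by 1.19-fold (-0.26 ± 0.08). That call was lost without either control library and with the 2 groups fitted alone, and after a correction for exon length the value was 0.04. Short messages were lower in the knockdown libraries: the median log2 change was -0.39 for genes under 2000 nt of exon, -0.15 from 2000 to 4000 nt, 0.0081 from 4000 to 8000 nt and 0.16 above. UCHL1 has 2207 nt, NEFL 3940, NEFM 3635, INA 3251 and SYP 5215. With the same correction the knockdown changes were -2.55 for NEFL, -1.44 for NEFM, -0.88 for INA and -1.61 for SYP, and these 4 were still called. In the knockout the UCHL1 change was 0.09 ± 0.08 and was not called. The knockdown was called lower than the knockout (-0.34 ± 0.08), a call also lost with the length correction (-0.08).

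STMN2 (ENSG00000104435.14, chromosome 8, 79611117 to 79666158) had 1 and 0 counts in the knockdown libraries, 0 and 0 in the knockout libraries and 5 and 0 in the control libraries. The 5 counts of control replicate 1 were the only value above the floor of 3 counts. TUBB3 (ENSG00000258947.7, chromosome 16, 89921392 to 89938761) had 18 and 10 counts in the knockdown, 7 and 19 in the knockout and 3 and 9 in the control libraries. Its changes, 1.12 ± 0.91 in the knockdown and 1.06 ± 0.91 in the knockout, were not called. The annotation gives 35.8% of the exon bases of TUBB3 to a second gene on the same strand, ENSG00000198211, that was at 0 counts in all 6 libraries. The file headers show no option that counts reads lying in both genes, so these counts need not measure the level of TUBB3.

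In the MLL2 knockout 3 of the 8 genes were called, 1 higher (SYP) and 2 lower (NEFL and NEFM). Of all genes tested, 22.4% were called, 10.3% higher and 12.1% lower. Both knockout libraries lay below both control libraries for NEFL, NEFM and INA, as for 32.5% of tested genes, and above both for SYP and UCHL1, as for 30.1%. Between the knockdown and the knockout 5 of the 8 were called, NEFM higher and NEFL, INA, SYP and UCHL1 lower. There 40.7% of all genes were called, 19.4% higher and 21.4% lower. Both knockdown libraries lay below both knockout libraries for NEFL, INA, SYP and UCHL1, as for 35.1% of tested genes, and above both for 0 of the 8, against 34.9%. The 2 comparisons with control share the control libraries.

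Genes near NEFL and NEFM did not all move with them. Within 500 kb of the start of NEFL, 6 other genes were tested. NEFM and KCTD9 were called in the knockdown, NEFM lower and KCTD9 higher (0.998 ± 0.12), and NEFM alone in the knockout. DOCK5, a guanine nucleotide exchange factor gene in that window, was at 0.17 ± 0.18 in the knockdown and -0.19 ± 0.18 in the knockout, not called in either. Near INA, 6 of 11 genes were called higher and 2 lower in the knockdown, and 3 higher and 0 lower in the knockout. Near SYP, 1 of 22 was called higher and 5 lower in the knockdown, and 3 higher and 3 lower in the knockout. Over all tested genes, 22.2% were called higher and 25.3% lower in the knockdown, and 10.3% and 12.1% in the knockout. Whether the neighbours differ from these shares was not tested.

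The genes most like each member were found by the distance between log2 levels over the 6 libraries, each gene centred on its control mean, among 11508 other genes. For NEFL they were the long noncoding gene MIR222HG (distance 0.258), DDIT4 (0.275) and MYOM2 (0.277). For NEFM they were GYG2 (0.524), SDC1 (0.530) and DOC2A (0.530). For INA they were F8, CA5B and KREMEN1, at 0.191 to 0.213, and for SYP RIBC2, ZNF536 and TM7SF2, at 0.316 to 0.360. For UCHL1 they were YBX1, ETFDH and UBL7, at 0.0535 to 0.0703. No other neurofilament gene was among the 3 nearest of any member. All points share the same 6 libraries, so these distances only describe.

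Among the relatives of the neurofilaments, 9 other intermediate filament genes were tested. Counts for this list and all lists below stand beside the shares over all tested genes. These were 22.2% higher and 25.3% lower in the knockdown, and 10.3% and 12.1% in the knockout. Whether a list differs from them was not tested. In the knockdown 2 were called higher and 2 lower (median -0.30, against -0.04 for all tested genes). VIM, vimentin, was higher (0.55 ± 0.08, adjusted p = 8.60e-06 by edgeR's quasi-likelihood test, as for every adjusted p here) and so was SYNM, synemin (0.65 ± 0.21, adjusted p = 0.0133). LMNB1, a nuclear lamin, was lower (-0.30 ± 0.08, adjusted p = 0.00428). In the knockout 0 were higher and 3 lower (median -0.63, against -0.01). PRPH, peripherin, a neuronal filament protein that can join neurofilaments, had 15 and 2 counts in the knockout libraries against 51 and 50 in the control libraries (-2.63 ± 0.67, adjusted p = 0.00701). SYNM (-0.63 ± 0.22, adjusted p = 0.0436) was lower there, where the knockdown had it higher, and so was NES, nestin (adjusted p = 0.0442). In the knockdown PRPH had 21 and 19 counts and was not called.

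Genes that act on neurofilaments were called in both directions, as were all tested genes. Of 11 tested genes of turnover, kinases and transport, 3 were called higher and 4 lower in the knockdown (median -0.13). Over all tested genes the shares there were 22.2% and 25.3%. In the knockout 2 were higher and 2 lower (median 0.06), beside shares of 10.3% and 12.1%. DST, a linker of the cytoskeleton, was higher in the knockdown (1.01 ± 0.09, adjusted p = 9.87e-09), and CDK5, a kinase of neurofilament side arms, was lower (-1.04 ± 0.10, adjusted p = 2.60e-08). In the knockout KIF5C, a neuronal kinesin heavy chain, was lower (-1.20 ± 0.18, adjusted p = 5.40e-05), as was the linker PLEC (-0.68 ± 0.21, adjusted p = 0.0253), while TRIM2, a ubiquitin ligase that binds NEFL in mice, was higher (0.37 ± 0.09, adjusted p = 0.00506). In the knockdown PLEC was called higher (0.97 ± 0.20, adjusted p = 0.000490) and TRIM2 lower (-0.996 ± 0.09, adjusted p = 2.85e-08), each opposite to the knockout, and KIF5C was lower (-1.44 ± 0.18, adjusted p = 1.03e-06). The PLEC libraries of the knockdown were far apart, at 42.2 and 88.7 CPM, against 32.9 and 34.1 CPM in the control.

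Relatives of the neuronal markers are given next. No list value is corrected for exon length, with which the knockdown changes moved. Both tested stathmins were lower in the knockdown, STMN3 (-1.41 ± 0.11, adjusted p = 2.39e-09) and STMN1 (-0.94 ± 0.09, adjusted p = 4.83e-08), and 0 of 2 were called in the knockout (median -0.04). Of 6 other beta tubulins, 3 were lower and 0 higher in the knockdown (median -0.40): TUBB2B (-1.38 ± 0.09, adjusted p = 3.32e-10), TUBB6 (-0.82 ± 0.09, adjusted p = 3.66e-07) and TUBB (-0.51 ± 0.08, adjusted p = 2.05e-05). In the knockout TUBB2B was lower (-0.69 ± 0.09, adjusted p = 1.99e-05), and TUBB4B (0.44 ± 0.08, adjusted p = 0.000497) and TUBB (0.31 ± 0.08, adjusted p = 0.00735) were higher (median 0.21). Reads that fit several near-identical tubulin genes were removed by the mapping quality limit, so these counts hold the reads that could be placed.

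Of 5 tested relatives of synaptophysin, 2 were lower in the knockdown, SYNGR1 (-1.01 ± 0.15, adjusted p = 8.02e-06) and SYNGR3 (-1.58 ± 0.29, adjusted p = 0.000136), and 0 were higher (median -0.82). In the knockout SYNGR3 alone was called, lower (-0.95 ± 0.28, adjusted p = 0.0184), where SYP was higher. Of 3 relatives of UCHL1, UCHL5 was lower (-0.51 ± 0.09, adjusted p = 6.02e-05) and UCHL3 higher (0.57 ± 0.12, adjusted p = 0.000590) in the knockdown, and 0 were called in the knockout.

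Of 20 synaptic vesicle and release genes, 14 were tested, and 6 were lower and 1 higher in the knockdown (median -0.64). SV2A, a vesicle glycoprotein, was lower (-1.51 ± 0.21, adjusted p = 4.77e-06), as was SYT11 (-2.17 ± 0.41, adjusted p = 0.000173), while STX1A, a syntaxin of the release machinery, was higher (1.15 ± 0.22, adjusted p = 0.000164). In the knockout 3 were lower and 0 higher (median -0.51). They were SV2A (-2.19 ± 0.22, adjusted p = 5.90e-07), CPLX1 (-2.12 ± 0.61, adjusted p = 0.0161) and SYT11 (-1.24 ± 0.38, adjusted p = 0.0246). SV2A had 3.37 and 4.66 CPM in the knockout libraries against 16.1 and 20.6 CPM in the control libraries, so this vesicle gene and SYP differed in direction there.

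**Figure D4:**
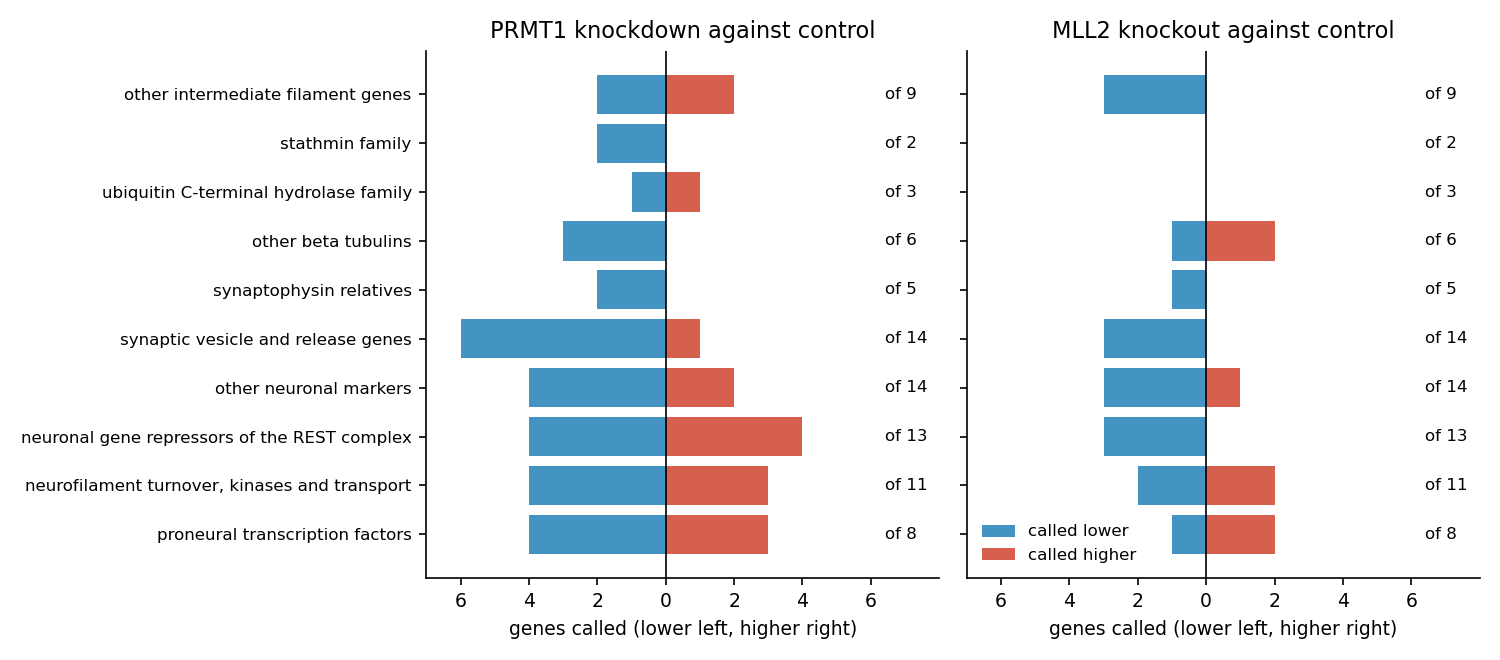
Number of genes called lower (bars to the left) and higher (bars to the right) in each list of related genes, in the knockdown against control (left panel) and the knockout against control (right panel). The number of tested genes stands at the right of each bar. Of 14 synaptic vesicle and release genes, 6 were lower and 1 higher in the knockdown, and 3 lower and 0 higher in the knockout. Over all tested genes, 25.3% were lower and 22.2% higher in the knockdown, and 12.1% and 10.3% in the knockout.

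Other neuronal markers ranged from well expressed to absent. Of 26, 14 passed the filter. MAP1B, a microtubule-associated protein of growing axons, had 44.7 and 66.3 CPM in the knockdown libraries, 32.6 and 33.4 CPM in the knockout libraries and 56.7 and 49.9 CPM in the control libraries. The RNA-binding protein gene ELAVL2, chosen after its values were seen, had 31.4 and 28.1 CPM, 40.1 and 39.6 CPM and 36.9 and 32.3 CPM in the same 3 groups. By contrast, ELAVL4, DCX, RBFOX1 and SRRM4 were at 0 counts in both control libraries, as was ELAVL3. In the knockdown 4 were lower and 2 higher (median -0.53), with ENO2 lower (-0.93 ± 0.19, adjusted p = 0.000344), NCAM1 higher (0.64 ± 0.12, adjusted p = 0.000143), and CELF4, at 2 and 1 counts against 28 and 25 in the control libraries, called lower. In the knockout 3 were lower and 1 higher (median -0.60), among them BASP1 (-1.90 ± 0.25, adjusted p = 1.44e-05), NSG1 (-2.03 ± 0.31, adjusted p = 7.89e-05) and MAP1B (-0.69 ± 0.14, adjusted p = 0.00113). BASP1, a growth cone protein, was among the genes called higher in the knockdown (0.79 ± 0.21, adjusted p = 0.00430). Of the 8 genes, 5 had more than 5 CPM in every library.

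The REST complex silences neuronal genes outside neurons, and all 13 listed genes of it were tested. REST was 2.04-fold higher in the knockdown, by 1.03 ± 0.10 on the log2 scale (adjusted p = 5.78e-08). Its level was 85.9 and 98.7 CPM in the knockdown against 47.9 and 42.8 CPM in the control. In the knockout it stood at 52.1 and 53.2 CPM and was not called. HMG20B, a subunit of the complex, was lower in the knockdown (-1.41 ± 0.09, adjusted p = 1.57e-10) and in the knockout (-0.62 ± 0.09, adjusted p = 4.23e-05). The corepressor RCOR2 was lower in the knockout (-2.26 ± 0.33, adjusted p = 5.41e-05) and in the knockdown (-1.44 ± 0.31, adjusted p = 0.000660). PHF21A was lower in the knockout (-0.78 ± 0.23, adjusted p = 0.0185) and not called in the knockdown (-0.06 ± 0.22, adjusted p = 0.839). In all, 4 were higher and 4 lower in the knockdown (median 0.08), and 0 higher and 3 lower in the knockout (median 0.03).

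Of 14 proneural transcription factors, 8 were tested. In the knockdown 3 were higher and 4 lower (median -0.73), with ISL1 (1.09 ± 0.14, adjusted p = 1.73e-06) and POU4F1 (0.66 ± 0.11, adjusted p = 2.96e-05) higher and NEUROG2 lower (-3.08 ± 0.70, adjusted p = 0.00106). NEUROG2 had few counts, 3 and 9 in the knockdown libraries against 52 and 43 in the control libraries. In the knockout ISL1 (0.88 ± 0.14, adjusted p = 0.000134) and POU4F1 (0.31 ± 0.11, adjusted p = 0.0410) were higher and MYT1 was lower (-1.28 ± 0.44, adjusted p = 0.0425; median of the list -0.06).

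Markers of other cell types were set beside these values. Glial markers summed to 4.64 to 7.97 CPM in the knockdown, 9.16 to 10.9 CPM in the knockout and 10.7 to 11.8 CPM in the control libraries, with 2 of 5 tested called lower in the knockdown and 1 in the knockout. Neural progenitor markers summed to 59.9 to 63.7 CPM, 63.8 to 70.3 CPM and 62.7 to 69.2 CPM in the same order, with 2 of 6 lower in the knockdown and 1 in the knockout. Kidney epithelium markers summed to 148 to 168 CPM, 115 to 118 CPM and 177 to 199 CPM, with 1 of 7 higher and 4 lower in the knockdown and 3 lower in the knockout, while CDH16 and UMOD were at 0 in all 3 groups. Sympathoadrenal markers summed to 36.9 to 52.1 CPM, 19.1 to 20.5 CPM and 19.9 to 20.8 CPM. In that list 1 of 4 was called higher in the knockdown, GATA2 (1.70 ± 0.17, adjusted p = 6.67e-08), and 0 in the knockout. GATA2 alone had 28.9 and 41.8 CPM in the knockdown against 11.3 and 10.5 CPM in the control libraries, which is most of the difference between the sums. PHOX2A was at 0 in all 3 groups. The part of these markers in the changes of the 8 genes was not tested.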

How the data were processed

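The deposited files hold raw counts of read pairs per gene, 1 file per library. The submitters' processing notes list FastQC (0.11.4), Trim Galore (0.6.10), STAR (2.7.5a), featureCounts (1.5.0-p1), DESeq2 (1.36.0) and the genome build hg38. Per the file headers, pairs were counted by featureCounts 2.0.1 on GENCODE 34 at a mapping quality of at least 10 and strand setting 2 (reverse), so the counter's version is not settled. Per the labels, RNA was TRIzol-extracted and libraries were made with a stranded total RNA kit. Symbols were matched for 60370 of 60669 genes, and exon lengths are those in the deposited files.

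Genes were filtered with filterByExpr, scaled by TMM and fitted over all 6 libraries in edgeR 4.0.16 (R 4.3.3; a term per group, 3 residual degrees of freedom), with Benjamini-Hochberg adjustment over 17575 genes. The SE is the log2 change over the root of the F statistic. The steps were tested on simulated data. The 8 genes, the lists and the tests were chosen with earlier results of these data known. All 8 genes are named, and of each list up to 3 called genes with the smallest adjusted p per comparison with control, BASP1, ELAVL2, GATA2, genes at 0 and the knockdown values of PRPH, PLEC, TRIM2, KIF5C, RCOR2 and PHF21A being given beside them. A few genes of these lists are counted but not reported here by name. Likeness used log2(CPM + 0.5). Alternatives were relative log expression, DESeq2 1.42.0, 2 other filters, pairs of groups alone, a replicate block, a spline (4 degrees of freedom) on exon length and leaving out each library. Counting intervals and floors cover counting error only.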

Additional observations from a re-analysis of the deposited data

How the results depend on the processing

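For the 6 members tested, 213 values kept their direction and their side of the threshold over the alternatives, 13 kept the direction and lost the call, and 3 changed sign. NEFL, NEFM, INA and SYP in the knockdown against control stayed called and lower in every alternative run, as did NEFL and NEFM in the knockout. Leaving out a library, their knockdown changes ran from -2.72 to -2.63, -2.02 to -1.28, -1.40 to -0.80 and -1.71 to -1.62, in that order, and the knockout changes from -1.19 to -1.16 and -2.11 to -1.93. The sign changes were UCHL1 in the knockdown against control, 0.041 with the exon length correction, and TUBB3 between knockdown and knockout, from -0.52 to 0.99 over the libraries left out; the cause was not tested. Calls of all genes in the knockout ran from 1908 to 5492, against 3941, when a library was left out, and were 2157 or 1908 with control replicate 1 or 2 left out, and 2184 or 2255 with MLL2 knockout replicate 1 or 2 left out. With the replicate number as a block, 5, 3 and 5 members were called (knockdown against control, knockout against control, knockdown against knockout), as without it, and 8710, 4512 and 7529 genes, against 8338, 3941 and 7154. Nothing in the labels pairs the libraries. Same-numbered libraries deviated together with r = 0.0685 (knockout and control), 0.0431 (knockdown and control) and 0.204 (knockdown and knockout) over 11509 genes. These values do not settle whether the libraries were paired. Depth limits NEFH, STMN2 and TUBB3, whose counts are too few for a change to be read. TUBB3 has a further limit that depth does not lift, the exon bases shared with a second gene on its strand.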
